A study of Mus musculus with 6 samples.

Results

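The promoters of 7 mouse genes, Nmd3, Cyb5r4, Tent4b, Mta1, Slc2a1, Arl8a and Dnaja2, are described here because they held mainly positions of lower methylation than a reference in induced and germline-derived pluripotent cell lines. The genes were chosen on these measured values, so their lower methylation in those lines is a description and carries no test. For each gene, all deposited positions from 5000 bp before to 5000 bp after its span were collected, which gave 235 of the 448072 positions listed for any library. The 7 genes are among 27024 genes of the RefSeq GRCm38.p6 table that have a strand.

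Reduced representation bisulfite sequencing, which reads CpG-rich fragments of a digested genome after unmethylated cytosines have been converted, was applied to 6 cultured lines of the OG2 mouse strain. They comprised 1 line of germline stem cells (GSC), 2 independent lines of induced pluripotent stem cells made from GSC (iPSC), 2 independent lines of pluripotent cells derived from the germline (gPSC) and 1 embryonic stem cell line (ESC). No treatment, time or passage was given for any group, and GSC and the reference are each 1 line. Every library except ESC has a list of positions with higher methylation (hyper) and a list with lower methylation (hypo) than a reference that the lists do not name and that is taken here to be the ESC line. All values below are the authors' differences from it in percentage points, so the 5 libraries share 1 reference and are not independent of each other.

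In mammals, CpG-rich promoters of widely used genes are usually free of methylation, while most other CpGs are methylated. A CpG reads the same on both strands, and the cytosines of both strands are usually methylated together by maintenance methylation after replication. The genes described here act in unrelated parts of the cell. Nmd3 takes part in exporting the large ribosomal subunit from the nucleus, Tent4b a poly(A) polymerase that tags RNA for decay, and Mta1 a subunit of the NuRD chromatin complex. Slc2a1 encodes the glucose transporter GLUT1, Cyb5r4 a cytochrome b5 reductase, Arl8a a small GTPase of lysosomes, and Dnaja2 a co-chaperone of Hsp70.

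In 6 of the genes the positions that were hypo in all 4 lines lay in a short stretch around or just before the gene start, and the sequences show which letters of each stretch were listed. Each is written 5′ to 3′ on the strand of its gene, from RefSeq promoter sequence of GRCm38.p6, and capitals mark positions that were hypo in all 4 pluripotent lines. The print stops at most 30 bp after the start, so some shared positions are not shown. It shows 8 of 9 in Cyb5r4, 6 of 15 in Tent4b and 16 of 20 in Arl8a. The stretches are Nmd3 at chr3:69721879-69722017, Cyb5r4 at chr9:87021967-87022038, Tent4b at chr8:88199170-88199243, Mta1 at chr12:113098114-113098200 and Arl8a at chr1:135146737-135146864, all plus strand, and Dnaja2 at chr8:85555428-85555571, minus strand.
Nmd3: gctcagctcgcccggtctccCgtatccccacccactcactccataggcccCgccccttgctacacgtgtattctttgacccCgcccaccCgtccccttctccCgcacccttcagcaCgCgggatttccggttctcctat
Cyb5r4: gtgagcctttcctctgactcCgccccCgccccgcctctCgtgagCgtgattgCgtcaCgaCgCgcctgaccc
Tent4b: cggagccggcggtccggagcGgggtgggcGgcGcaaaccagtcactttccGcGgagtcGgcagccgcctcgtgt
Mta1: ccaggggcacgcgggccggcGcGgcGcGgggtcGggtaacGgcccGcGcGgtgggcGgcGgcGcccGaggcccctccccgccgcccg
Arl8a: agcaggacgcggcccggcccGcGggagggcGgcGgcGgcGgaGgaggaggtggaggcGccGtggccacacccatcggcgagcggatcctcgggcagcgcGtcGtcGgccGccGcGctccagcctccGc
Dnaja2: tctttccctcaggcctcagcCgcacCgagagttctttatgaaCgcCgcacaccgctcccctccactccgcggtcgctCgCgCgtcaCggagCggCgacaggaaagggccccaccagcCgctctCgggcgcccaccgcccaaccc
In the Nmd3, Cyb5r4 and Dnaja2 lines every capital is the C of a CG, and in the Tent4b and Mta1 lines every capital is the G. In Arl8a all capitals but 1 are the G of a CG. The listed positions of Slc2a1 lie beyond the stored promoter sequence, so none is printed. The restriction site CCGG, a palindrome searched as these letters, was in the promoter window of 300 bp of all 7 genes and in 52.8% of 32851 such windows. These windows held 18 (Slc2a1) to 51 (Arl8a) CpGs in the 7 genes, against a median of 7 over all windows. The method reads CpG-rich fragments and the 7 genes needed listed promoter positions, while the other windows need not be covered. Nothing about these genes is therefore read from the site or the CpG number.

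A promoter is counted below as the 2000 bp before to the 500 bp after the gene start. It was called hypo in a library when it held at least 3 hypo positions and these made up at least 80% of its listed positions. By this call all 7 promoters were hypo in iPSC 1, iPSC 2 and gPSC 2, 5 in gPSC 1 and 4 in GSC. Over the 6675 promoters with at least 3 positions listed in any library, the share called hypo was 4.54% in iPSC 1 and 7.19% in iPSC 2, 4.06% in gPSC 2, 4.69% in gPSC 1 and 12.3% in GSC. The lines were used to choose the genes, so nothing is read from the distance between these shares and the members. Nmd3, Cyb5r4, Tent4b, Mta1 and Slc2a1 were called in all 4 pluripotent lines. They are part of the 12 promoters called there, 0.18% of all promoters. The 12 also include promoters outside the set, among them Abhd4, Slc18a2 and Gm52706, which are described below. The call is therefore not particular to the members. Arl8a and Dnaja2 were not called in gPSC 1, so these 2 genes miss the 80% threshold in that line. There Arl8a held 20 hypo and 10 hyper positions, and Dnaja2 12 and 10 (54.5% hypo). Nearest to the 80% threshold on the inside were Nmd3 in gPSC 1 with 80% hypo and Tent4b in iPSC 2 with 84.2%. Nearest on the outside were Tent4b in GSC with 77.3% and Arl8a in gPSC 1 with 66.7%.

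**Figure D1:**
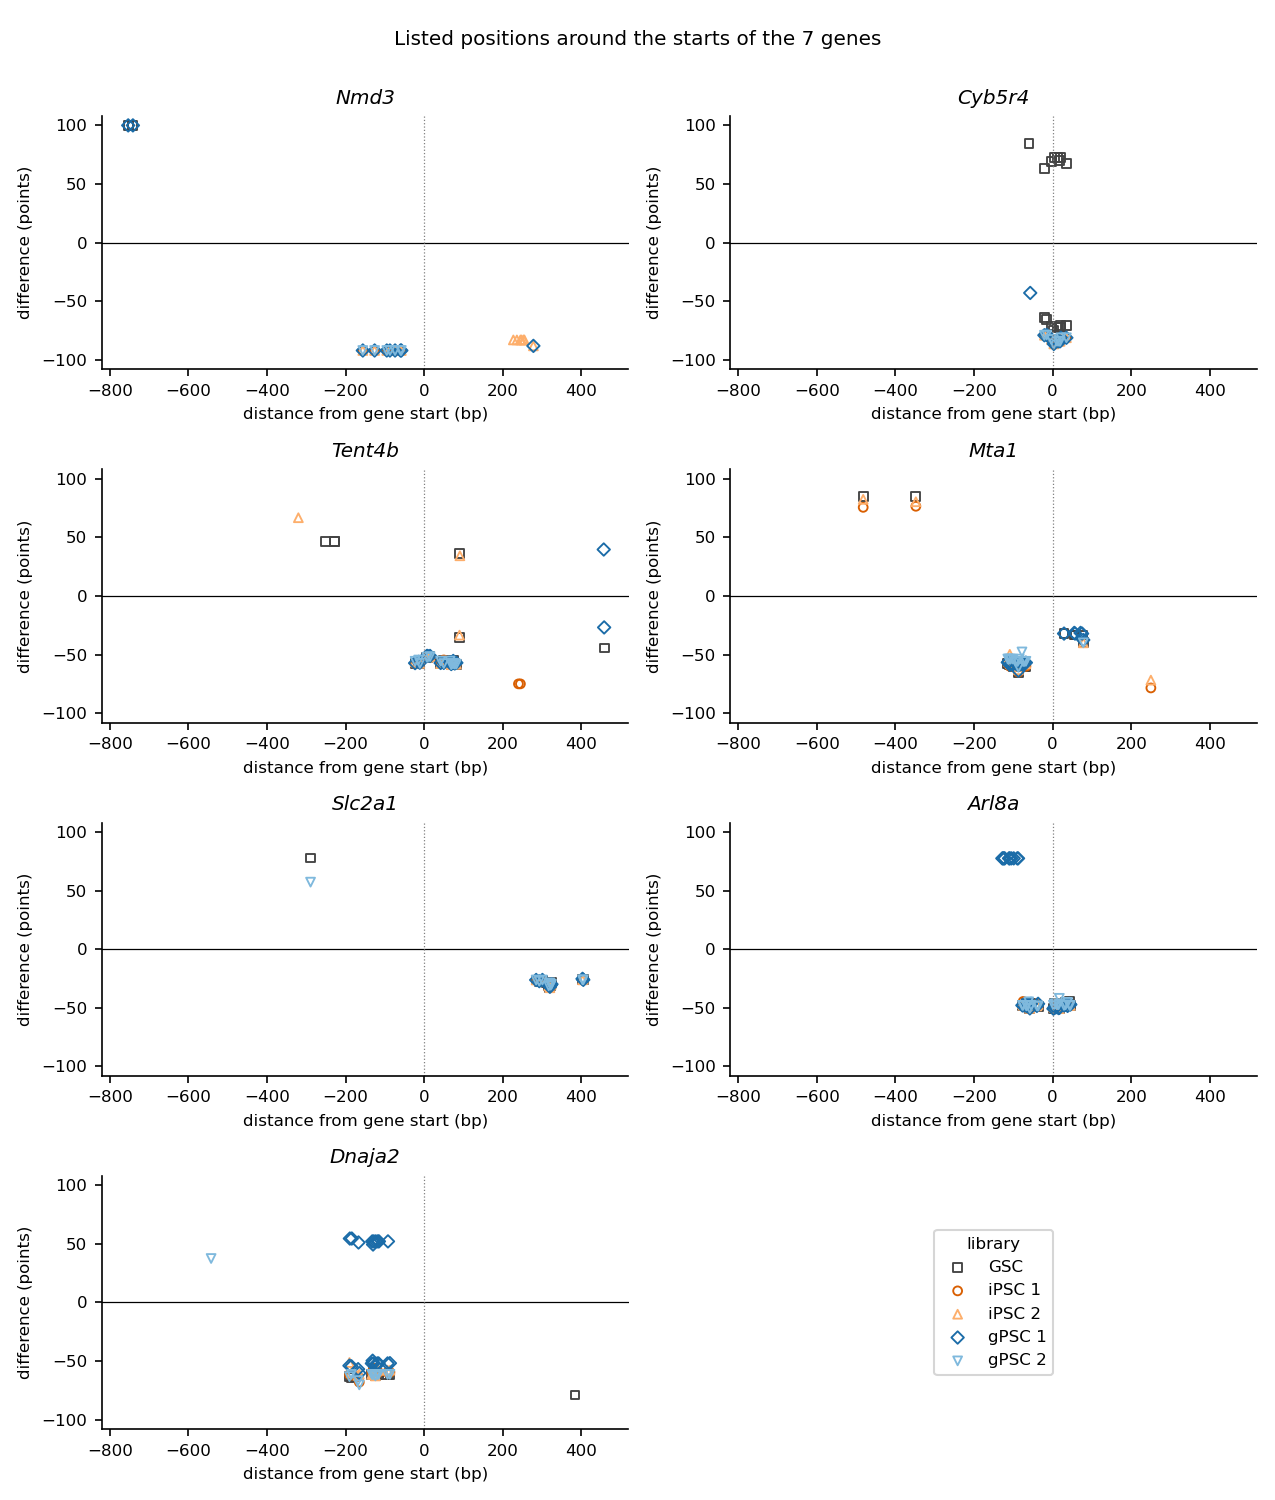
Difference from the reference in percentage points (vertical axis) against distance from the gene start in bp (horizontal axis) for each listed position from 800 bp before to 500 bp after the start, coloured and shaped by library. The hypo positions of the lines form tight clusters, near −91.9 points in Nmd3 and between −25.3 and −32.9 points in Slc2a1, while the hyper positions of Cyb5r4 belong to GSC and those next to the clusters of Arl8a and Dnaja2 to gPSC 1.

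Nmd3, the ribosome export adaptor (chromosome 3, 69722055 to 69749047, plus strand), had the largest hypo differences of the 7 promoters. It held 7 hypo positions in iPSC 1 and 14 in iPSC 2, 8 in gPSC 1, 7 in gPSC 2 and none in GSC. The mean difference of these hypo positions was −91.9 points in iPSC 1 and −87.8 in iPSC 2, −91.4 in gPSC 1 and −91.9 in gPSC 2. In all 4 lines the same 7 positions, from 156 to 58 bp before the start, carried 1 value, −91.94 points. Since methylation cannot exceed 100%, such a difference requires at least 91.9% in the reference and allows at most 8.06% in the line. iPSC 2 had a second cluster from 227 to 278 bp after the start at −82.9 and −88.0 points, of which gPSC 1 shared the last position. GSC had 2 positions, 753 and 741 bp before the start, each at 100 points higher, and gPSC 1 listed both at the same value. A position that is absent from a list can be unchanged or unmeasured, so GSC methylation at the 7 positions is unknown. The deposited annotation puts 7 of the hypo positions in the promoter alone and 7 in the promoter and an intron.

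Cyb5r4, the reductase gene (chromosome 9, 87022008 to 87077774, plus strand), split GSC from the pluripotent lines. Its promoter held 9 hypo positions in each of iPSC 1, iPSC 2 and gPSC 2 and 10 in gPSC 1, with no hyper position in any of them. The 9 common positions lay from 21 bp before to 35 bp after the start and averaged −82.3 points in each of the 4 lines, with each position holding the same difference in all 4. The deposited p of these positions differed between lines, with the largest p being 5.57e-06 in iPSC 1 and 0.000846 in gPSC 2. In GSC the same 9 positions were hypo by a mean of −70.4 points, but 8 hyper positions with a mean of 71.7 points were interleaved with them. At 21 bp before the start GSC read −63.6 points and at the next base 63.6 points, the C and the G of the same CpG. GSC therefore held 52.9% hypo positions and was not called. Outside the promoter, iPSC 1 listed 1 hyper position 3790 bp before the start, at 28.3 points. It lies in the span of Ripply2 and in the promoter of Gm51687, a long non-coding RNA gene.

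Tent4b, the RNA poly(A) polymerase (chromosome 8, 88199213 to 88263314, plus strand), held 17 hypo and 5 hyper promoter positions in GSC. The numbers were 17 against 1 in iPSC 1, 16 against 3 in iPSC 2, 16 against 2 in gPSC 1 and 15 against 1 in gPSC 2. A core of 15 positions from 23 bp before to 82 bp after the start was hypo in every library, with means of −56.2 points in GSC, −56.4 in each iPSC line, −55.8 in gPSC 1 and −56.0 in gPSC 2. These means lie within 1 point of each other, GSC included. The hyper positions were elsewhere: 1376 and 1240 bp before the start, 320 bp before it in iPSC 2, at 251 to 227 bp before it in GSC, 457 bp after it in gPSC 1, and 91 bp after it in GSC and iPSC 2. At the neighbouring bases 90 and 91 bp after the start, GSC read −35.5 and 36.1 points and iPSC 2 −33.4 and 34.2 points.

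Mta1, the NuRD subunit (chromosome 12, 113098248 to 113137206, plus strand), held 18 hypo positions in GSC, 14 in iPSC 1 and 15 in iPSC 2, 19 in gPSC 1 and 14 in gPSC 2. Beside them stood 2 hyper positions in GSC and in each iPSC line, 482 and 348 bp before the start, and none in the gPSC lines. The 13 positions hypo in every line lay from 114 to 68 bp before the start. They averaged −59.9 points in GSC, −60.1 in iPSC 1 and −57.2 in iPSC 2, −58.3 in gPSC 1 and −54.7 in gPSC 2. A weaker group from 29 to 78 bp after the start, between −31.5 and −40.0 points, was listed mainly in GSC and gPSC 1, and 1 position 250 bp after it was listed in the iPSC lines (−78.5 and −71.8 points).

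Slc2a1, the GLUT1 gene (chromosome 4, 119108745 to 119137330, plus strand), had the smallest differences, close to the authors' minimum of 25 points. It held 10 hypo positions in GSC, 8 in iPSC 1 and 9 in each of iPSC 2, gPSC 1 and gPSC 2. Their means were −28.4, −28.8, −28.3, −28.3 and −28.1 points in that order of libraries. They lay from 285 to 405 bp after the start, which the deposited annotation gives as promoter and intron. All 10 also fall in the promoter of Gm52706, a long non-coding RNA gene on the minus strand whose start lies inside the Slc2a1 span, so they cannot be assigned to either gene. Gm52706 was itself called hypo in all 4 lines from these positions. GSC and gPSC 2 each had 1 hyper position 289 bp before the start, at 77.8 and 57.1 points.

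Arl8a, the lysosomal GTPase (chromosome 1, 135146834 to 135156268, plus strand), held the same 20 hypo positions in all 5 libraries, from 77 bp before to 45 bp after the start. Their means were −48.2 points in GSC, −48.1 in iPSC 1 and −48.5 in iPSC 2, −48.3 in gPSC 1 and −47.3 in gPSC 2. The values of single positions ran from −41.9 to −50.8 points in the lines. gPSC 1 alone among the libraries listed 10 hyper positions as well, from 128 to 88 bp before the start and each near 77.4 points. These 10 positions are the C of their CpGs, while the hypo positions of the gene are the G.

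Dnaja2, the Hsp70 co-chaperone (chromosome 8, 85537633 to 85555361, minus strand), held 12 hypo positions in each of the 4 lines and 11 in GSC. The 12 lay from 190 to 87 bp before the start and averaged −60.8 points in iPSC 1 and −59.4 in iPSC 2, −53.4 in gPSC 1 and −62.8 in gPSC 2. At the 10 of them listed in GSC the mean was −61.9 points. In gPSC 1 10 hyper positions with a mean of 52.2 points sat next to the hypo ones, so 54.5% of its positions were hypo. At 133 bp before the start gPSC 1 read −52.0 points and at the neighbouring base 52.0 points. The deposited annotation gives no feature for the hypo positions of this gene.

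**Figure D2:**
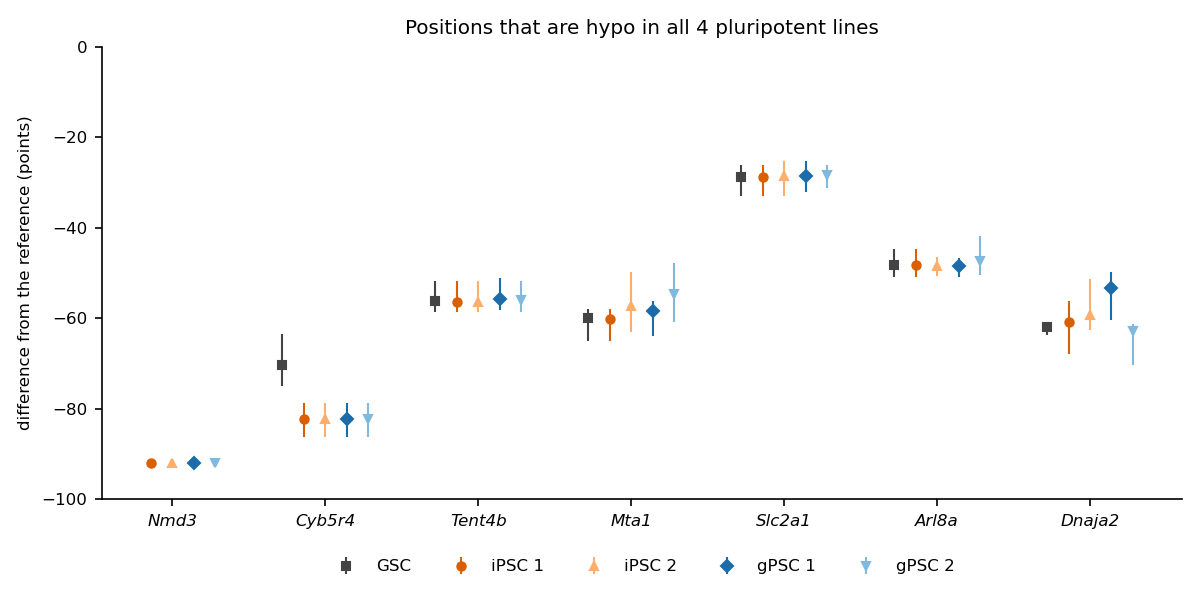
Difference from the reference in percentage points at the positions that were hypo in all 4 pluripotent lines, by gene and library, with the mean as a symbol and the lowest to highest position as a line. The libraries nearly coincide in Tent4b, Slc2a1 and Arl8a, GSC stands above the lines in Cyb5r4 (−70.4 against −82.3 points), and gPSC 1 is the highest in Dnaja2 (−53.4 points). GSC has no listed position among those of Nmd3.

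At the positions that all 4 lines listed as hypo, the spread between lines varied by gene. For each such position the spread is the highest minus the lowest difference of the 4 lines, in which a shared reference cancels. Its median was 0 points in Nmd3 and Cyb5r4, 0.85 in Slc2a1, 1.09 in Tent4b, 1.83 in Arl8a, 4.08 in Mta1 and 9.30 in Dnaja2. The genes were chosen on these line values, lines that are all at 0% would give a spread of 0, and levels are not in the lists, so nothing further is read from a small spread. Positions of 1 gene sit within 123 bp of each other and can be read from the same fragments, so they are not independent.

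The question of which promoters depend on positions beside an opposite-sign neighbour was asked by leaving out every position with a listed position of the other sign 1 to 50 bp away in the same library. Nmd3, Mta1 and Slc2a1 lost no promoter position in any library, and Cyb5r4 lost none in the 4 pluripotent lines. Tent4b in iPSC 2 went from 16 hypo and 3 hyper positions to 6 and 2, which is 75.0% hypo, and its call fell away. In gPSC 1 Tent4b kept 15 hypo positions and 1 hyper position and its call. Arl8a in gPSC 1 went from 20 hypo and 10 hyper to 12 and 1, and it gained the call. In gPSC 1 Dnaja2 lost all 22 positions, so nothing remained to call. In GSC all 17 promoter positions of Cyb5r4 were left out and Tent4b went to 7 hypo and 4 hyper.

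After this removal 7 promoters were called in iPSC 1 and 6 in iPSC 2, 6 in gPSC 1, 7 in gPSC 2 and 4 in GSC. The matching shares of all promoters were 4.96%, 7.93%, 5.39%, 4.43% and 14.4%. The number called in all 4 lines stayed at 5 (0.285% of all promoters), but Arl8a had taken the place of Tent4b. At a distance of 200 bp the number was 4, without Arl8a. Over all promoters, 15 of 480 hypo calls in iPSC 2 (3.13%) and 12 of 313 in gPSC 1 (3.83%) fell away, while 64 and 59 promoters gained the call. In all 4 lines together 8 promoters gained it, Arl8a among them, and Tent4b was the 1 of 12 that lost it.

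**Figure D3:**
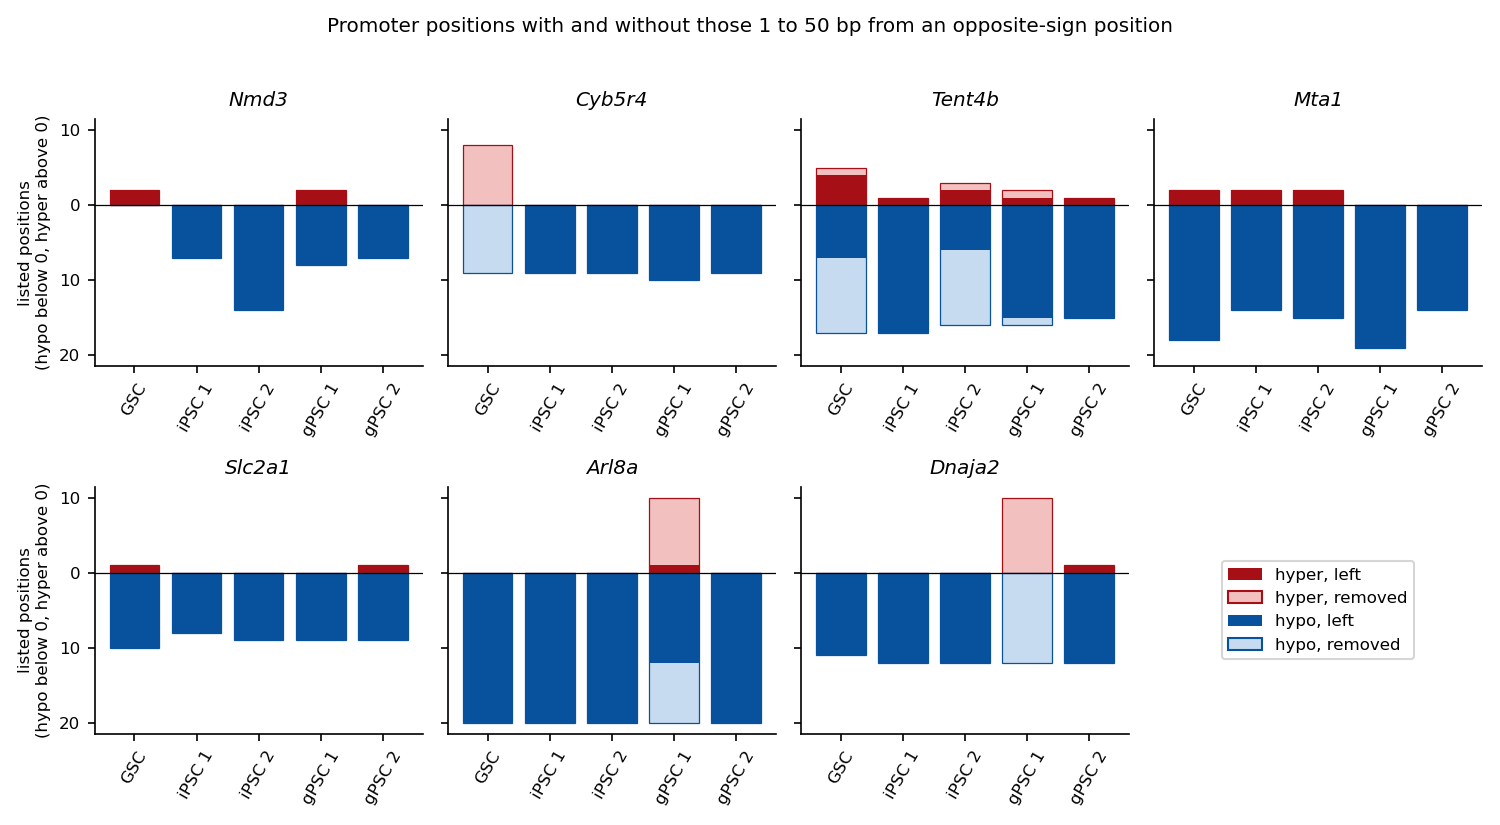
Number of listed promoter positions per gene and library, hypo drawn below 0 and hyper above 0, with full colour for positions left and pale colour for positions that have an opposite-sign position 1 to 50 bp away. Pale bars appear in GSC for Cyb5r4 and Tent4b, in iPSC 2 for Tent4b, and in gPSC 1 for Tent4b, Arl8a and Dnaja2.

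The distance mattered in different ways for the 3 genes. Dnaja2 in gPSC 1 had 2 hypo positions left when only neighbours 1 bp away counted and none from 5 bp on. Tent4b in iPSC 2 kept its call with distances up to 20 bp (10 hypo, 2 hyper) and lost it at 50 bp. The positions left out were those within 50 bp of a pair of opposite neighbouring bases, 90 and 91 bp after the start. Arl8a in gPSC 1 was not called at 20 bp (18 hypo, 8 hyper) and was called at 50 bp (12 hypo, 1 hyper) and 100 bp (7 hypo). At 200 bp it had no position left and no call. Its hyper block lies upstream of its hypo block and does not interleave with it. The distances of 10, 20 and 100 bp were added after the data had been seen.

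Pairs of neighbouring bases with opposite signs occurred in promoters and outside them. Within the 7 loci there were 10 such pairs in GSC, 5 in iPSC 1 and 6 in iPSC 2, 17 in gPSC 1 and 3 in gPSC 2. Of these, 8 of the GSC pairs were in the Cyb5r4 promoter and 12 of the gPSC 1 pairs in the Dnaja2 promoter. No promoter of the 7 held such a pair in iPSC 1 or gPSC 2, whose pairs lay in the rest of the loci. The 2 differences of a pair cancelled to within 5 points in all 8 pairs of Cyb5r4 and in 11 of the 12 of Dnaja2. The listed CpGs of all genes with promoter sequence were opposite at both bases in 32.9% of cases in GSC, 35.7% in iPSC 1 and 34.2% in iPSC 2, 38.1% in gPSC 1 and 35.2% in gPSC 2. Both bases had the same sign in 1.1% of them in GSC and in at most 0.27% in the lines.

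In the 6 genes with listed positions in the promoter sequence, every listed CpG of iPSC 1 (67), iPSC 2 (68) and gPSC 2 (68) had only 1 of its bases listed. This held for 60 of 67 CpGs in GSC and 74 of 85 in gPSC 1, the others being opposite at both bases. The genes were chosen for mainly hypo positions in the lines, and a CpG with opposite bases adds a hyper position. Few opposite CpGs in this sequence therefore follow in part from the choice. Within that sequence, all hypo positions of a gene fell on the same base, C in Nmd3 and Cyb5r4 and G in Tent4b, Mta1, Arl8a and Dnaja2 on the plus strand, apart from 1 position of Arl8a outside a CpG. Over all genes hypo positions were split between C (48.6% to 52.0% by library) and G. Among all hypo-called promoters with at least 3 hypo positions in the sequence, however, 83.3% in GSC, 89.5% in iPSC 1 and 96.0% in iPSC 2, 97.7% in gPSC 1 and 98.0% in gPSC 2 also had them on 1 base. The members are therefore close to the background in this. Every row of the deposited lists gives the strand as plus, whichever base it names. What makes the 2 bases of a CpG differ was not tested.

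**Figure D4:**
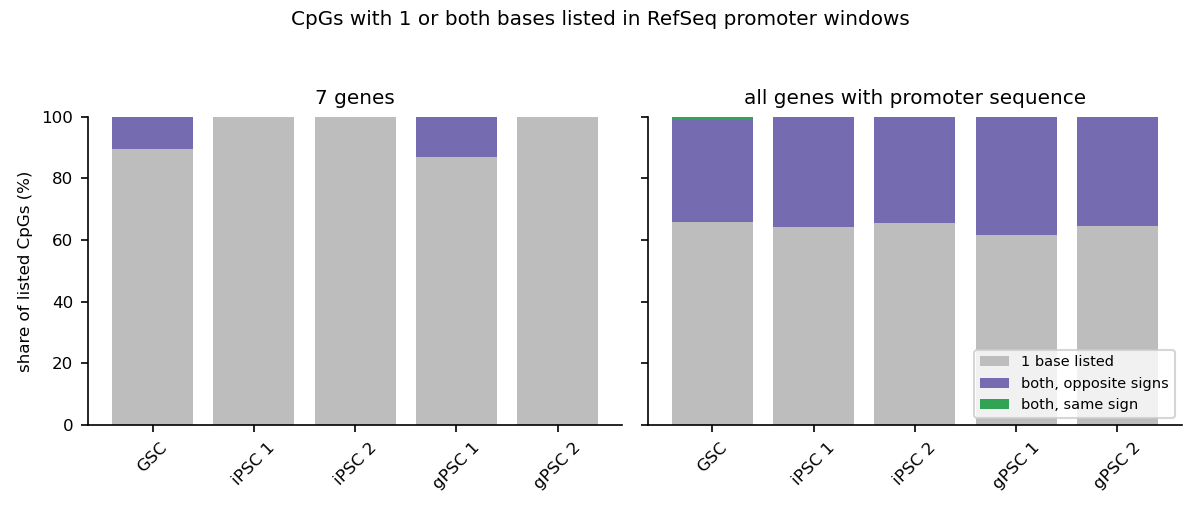
Share in percent of CpGs with a listed position in the RefSeq promoter windows, by library, that had 1 base listed, both bases listed with opposite signs, or both with the same sign, for the 7 genes on the left (Slc2a1 had none) and all genes on the right. In the 7 genes opposite CpGs appear in GSC (10.4%) and gPSC 1 (12.9%), against 32.9% and 38.1% over all genes. The genes were chosen for mainly hypo positions in the lines, which disfavours opposite CpGs, so nothing is read from this distance.

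Outside the promoters the direction was different, but the genes were chosen for hypo promoter positions in the lines. The promoter counts of the lines are therefore a description, and nothing is read from the contrast. The 7 promoters together held 85 hypo against 18 hyper positions in GSC, 87 against 3 in iPSC 1, 95 against 5 in iPSC 2, 94 against 24 in gPSC 1 and 86 against 3 in gPSC 2. The rest of the genes held 3 hypo against 35 hyper positions in GSC, 15 against 11 in iPSC 1, 3 against 14 in iPSC 2, 4 against 14 in gPSC 1 and 3 against 19 in gPSC 2. Hyper positions were thus more numerous than hypo ones in the bodies in every library except iPSC 1. The whole series was mainly hyper, with 12.8% (gPSC 2) to 21.8% (iPSC 2) of listed positions hypo. In GSC the bodies of Tent4b (11 hyper positions, mean 73.1 points), Slc2a1 (11, 58.2 points) and Mta1 (10, 70.3 points) held most of them. Tent4b in iPSC 1 was the exception, with 9 hypo positions averaging −59.1 points and 3 hyper positions. These 9 lay from 888 to 1202 bp after the start, beyond the promoter window used here. The deposited annotation gives them as exon and promoter, so they are outside the promoter only by this window. Beyond the end of Mta1, 4 hypo and 6 hyper positions in iPSC 2 and 3 and 5 in gPSC 1 were listed. Of all positions of the locus, 11 lie in the promoter of Crip2, a LIM domain protein gene, and 12 in that of F930026P19Rik, a long non-coding RNA gene.

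**Figure D5:**
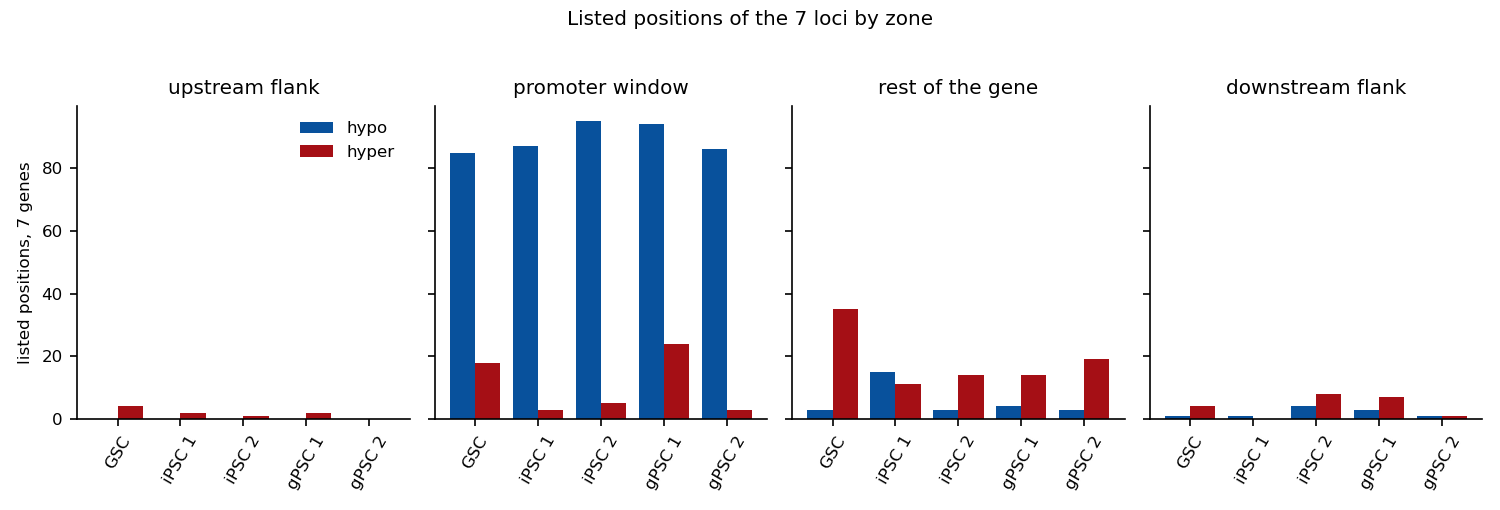
Number of listed hypo and hyper positions of the 7 genes by library in the flank before the promoter window, the promoter window, the rest of the gene and the flank after it. Hypo positions are mostly in the promoter window (85 to 95 per library), for which the genes were chosen in the lines. Hyper positions are more numerous than hypo ones in the rest of the gene, iPSC 1 excepted (11 hyper, 15 hypo).

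The difference between the 2 kinds of line was not itself used to choose the genes. The choice did ask for mainly hypo positions in both kinds, so the test is not independent of it. The difference was tested on the mean over all listed promoter positions of a line, hyper ones included. The test was an exact permutation of the lines, two-sided, for which 2 lines against 2 allow no p below 0.333. Mta1 averaged −42.5 ± 2.43 points in the iPSC lines and −52.0 ± 2.38 in the gPSC lines (SD, n = 2), a difference of 9.49 points with p = 0.333 by the exact test and 0.583 after Benjamini-Hochberg adjustment over the 7 genes. Arl8a averaged −48.3 ± 0.28 against −26.9 ± 28.9 points and Dnaja2 −60.1 ± 1.01 against −30.3 ± 35.1 points, both with an exact p = 0.333 (adjusted 0.583). Without positions 1 to 50 bp from an opposite-sign position, the iPSC minus gPSC difference of Arl8a went from −21.5 to −5.23 points (exact p = 0.333), and Dnaja2 had no value. The wide spread in the gPSC lines comes from gPSC 1, with −6.42 points in Arl8a and −5.41 in Dnaja2 against −47.3 and −55.1 in gPSC 2. Slc2a1 averaged −28.6 ± 0.34 against −23.9 ± 6.15 points, again with an exact p = 0.333. The lines of the 2 kinds overlapped in Nmd3 (−89.9 ± 2.93 against −72.5 ± 27.4 points), Cyb5r4 (−82.3 ± 0 against −80.4 ± 2.79) and Tent4b (−44.5 ± 10.5 against −45.5 ± 4.39), where the exact p was 1. The same removal took the Tent4b difference from 1.05 to 11.0 points, again with an exact p of 1. No gene can pass a threshold of 0.05 in this design. At the positions listed in all 4 lines, the iPSC minus gPSC difference was 0 in Nmd3 and Cyb5r4, and lay between −2.11 points (Mta1) and −0.31 (Slc2a1) in the others.

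Family members and partners of the 7 genes, such as the NuRD subunits around Mta1 and the Hsp70 system around Dnaja2, were examined as a list of 74, of which 33 could be assessed. They were called hypo in 5 cases in GSC, 2 in iPSC 1 and 1 in iPSC 2, 3 in gPSC 1 and 2 in gPSC 2. The shares of all promoters called hypo were 12.3%, 4.54%, 7.19%, 4.69% and 4.06% in that order. Hyper calls numbered 3, 0, 1, 3 and 1. No share of all promoters per library was computed for hyper calls, so nothing is read from these numbers. None of the 33 was called in either direction in both lines of a kind. The shares of all promoters were 0.794% (both iPSC) and 0.494% (both gPSC) hypo and 3.76% and 4.66% hyper. Among 33 promoters such shares leave few calls to be expected, so nothing is read from the absence. Chd4, the ATPase of NuRD, was called hypo in iPSC 1 (11 positions) and gPSC 2 (6 positions), and Mbd3, its methyl-CpG-binding family subunit, in gPSC 1 (15 positions). Rbbp4, a histone-binding subunit, was called hyper in gPSC 1 (13 hyper positions, 1 hypo) and hypo in GSC (12 hypo, 1 hyper). The other assessed NuRD subunits, Mta2, Hdac2, Gatad2a and Cdk2ap1, were not called in any library. These 7 genes were named after their values had been seen.

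The promoters most like the members were sought by the root mean square distance of the mean promoter difference over the 4 lines among 547 promoters with at least 3 listed positions in each line. Abhd4 was nearest to Mta1 (5.42 points) and Tent4b (6.27 points), and Slc18a2 to Cyb5r4 (17.0 points) and Nmd3 (19.3 points). Arsb was nearest to Slc2a1 (8.62 points), Gm19412 to Dnaja2 (10.7 points) and Spsb1 to Arl8a (11.4 points). The mean difference of Slc18a2, which encodes the vesicular monoamine transporter, was −75.9 points in iPSC 1 and −57.1 in iPSC 2, and −57.5 points in gPSC 1 and −75.6 in gPSC 2, all smaller in size than those of Cyb5r4.

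The labelled cell types were checked on marker promoters, of which 10 of 21 could be assessed. Pou5f1, the central pluripotency factor, was called hyper in GSC (17 hyper positions, 1 hypo) and also in each of the 4 lines (3 to 7 hyper positions). Zfp42, another pluripotency gene, was hyper in GSC (3 positions) and had no listed position in the lines. Foxo1, a gene of spermatogonial stem cells, was hypo in GSC with 9 positions and had none listed in the lines. Gfra1, the GDNF co-receptor, was called hypo in GSC with 4 positions. In the lines it held 4 or 5 hypo positions beside 2 to 4 hyper ones and was not called, so its hypo positions do not separate GSC from the lines. Calls of the 6 germ cell genes in the lines were mainly hyper. Hyper calls numbered 4 in iPSC 1, 3 in iPSC 2, 5 in gPSC 1, 4 in gPSC 2 and 1 in GSC. No share of all promoters per library was computed for hyper calls, so nothing is read from these numbers. Sycp3 and Asz1 were hyper in all 4 lines, and Dazl in iPSC 1 and both gPSC lines. In GSC Dazl held 14 hypo and 6 hyper positions and was not called. Mael was hyper in both iPSC lines and gPSC 1, and Tex19.1 in GSC and both gPSC lines. Ddx4 was called hypo in gPSC 2 (6 hypo positions, 1 hyper). Methylation marks do not show expression, so these values check the labels only in part.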

How the data were processed

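Per the submitters' processing notes, Bismark, Bowtie2, GATK and methylKit were used with the builds mm10 and GRCm38; for versions, roles and coverage minimums the sources used here give nothing. The authors deposited for each library a hyper and a hypo list of positions with a p-value, a q-value and a methylation difference in percentage points; every q is at most 0.01 and every difference at least 25 points. The lists hold no coverage and no methylation level, so the depth is unknown and no interval is given.

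Gene spans and promoter sequences came from RefSeq (GRCm38.p6), and the strand from its promoter table for 27024 genes; the planned fallback to the deposited feature column was not used, which leaves genes without a strand out of the background. Calls, means, exact permutation tests and figures were made in Python 3.11.15 with numpy 2.4.6, pandas 2.3.3, scipy 1.17.1 and matplotlib 3.10.9, and the code was tested on simulated data. The members, lists and tests were chosen with earlier results of these data known. The rule for named genes took the 7 members, partners called in both lines of a kind (none was), the nearest promoter to each member and neighbours that share positions. Marker genes are named from their list, and the assessed NuRD subunits were named outside the rule. The lines of a kind are independent per the series' design, and only the exact permutation p-values compare lines. The deposited p-values belong to single positions of 1 library against the reference and do not measure the spread between lines.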

Additional observations from a re-analysis of the deposited data

Results flagged for a closer look

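The mean promoter difference of Nmd3 in GSC was 100 points, opposite in sign to both iPSC lines (−91.9 and −87.8 points) and both gPSC lines (−53.2 and −91.9 points). It rests on 2 hyper positions, 753 and 741 bp before the start, which are other positions than the 7 hypo ones of the lines. gPSC 1 lists the same 2 positions at the same value. GSC has 1 library, so the difference was not tested.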

How the results depend on the processing

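Of 106 counts of called promoters recomputed under alternatives, 93 stayed within 1.5 times the reported count. The counts cannot exceed the 7 chosen genes, and a fall from 7 to 5 or from 5 to 4 stays within that factor. The 93 therefore follow in part from the choice and the factor, and no stability is read from them. The 5 promoters called in all 4 lines became 1 with q at most 0.001, 2 over the whole span with its flanks and 1 when every listed position had to be hypo. After removal of positions near an opposite-sign position, the 5 became 1, 3 and 1 under these settings. Over the whole span the counts were 2 in GSC, 4 in iPSC 2, 2 in gPSC 1 and 4 in gPSC 2, and with a share of 100% they were 2 in GSC, 3 in gPSC 1 and 4 in gPSC 2. Leaving out each line in turn gave 5 to 7 promoters before the removal, the 7 without gPSC 1, and 5 to 6 after it. The cause was not tested. Restricted to positions listed in all 4 lines, the iPSC minus gPSC difference became 0 in Nmd3 and in Cyb5r4 and turned to −0.50 points in Tent4b (from 1.05) and −2.11 in Mta1 (from 9.49). After the 50 bp removal it went from −21.5 to −5.23 points in Arl8a and from 1.05 to 11.0 in Tent4b, and Dnaja2 has no value because gPSC 1 has no position left. With the line number as a replicate block, the Mta1 difference of 9.49 points had an exact p = 0.5, the smallest that the pairing allows, and no call changed; 2 pairs share only a number. Unlisted positions and unknown depth limit every count.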
